A study of Mus musculus with 8 samples.

Results

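The BCL2 family genes described here are 10 regulators of mitochondrial apoptosis, taken by gene symbol from the 14162 genes of one expression table of mouse hepatic stellate cells. They are the pro-survival genes Bcl2l1, Bcl2l2 and Mcl1, the effectors Bax and Bak1, and the BH3-only genes Bcl2l11, Bad, Bid, Bbc3 and Pmaip1. All 10 symbols were found, and all 10 passed the filter on low values. RNA sequencing covered 8 libraries in 4 groups of 2, lettered a and b. The groups were quiescent cells, cells labelled only as activated, and activated cells with either a control microRNA or miR-15a. Hepatic stellate cells are the pericytes of the liver sinusoid, which store vitamin A when quiescent and become collagen-producing myofibroblasts when activated. The stated purpose of the series was to find likely targets of miR-15a. Mice of C57BL/6J and SCID background are mentioned as the animals kept, and no label ties a strain to a library. The labels give no age, no means of activation, no means of delivering the microRNAs and no time of harvest. Nothing says that both libraries of a group are separate animals or cultures, and p-values then measure a spread that may be technical.

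Mitochondrial apoptosis is decided by binding between proteins of this family. The effectors BAX and BAK permeabilise the outer mitochondrial membrane and release cytochrome c, and the pro-survival proteins BCL-XL, BCL-W and MCL1 hold them in check. The BH3-only proteins, which share with the others only the short BH3 helix, respond to stress and either occupy the pro-survival proteins or activate the effectors. BCL2 itself is a classical target of the miR-15 and miR-16 microRNAs, and loss of stellate cells by apoptosis is a known part of the resolution of liver fibrosis. These are statements about proteins, whereas the values below are transcript levels.

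The deposited values are whole-number scores that had been normalized to one shared distribution, and their sequencing depth is unknown. Pearson's r between both libraries of a group, across the 13150 genes tested, was 0.986 to 0.990. Markers of activated stellate cells rose from summed scores of 3134 and 3536 in the quiescent libraries to between 358465 and 525893 in the other groups. Of 10 stellate cell markers 9 had a value, with Lrat the exception, and on activation 2 of them rose and 7 fell (median log2 fold change -2.32). Pdgfrb, a receptor for PDGF, rose from 386 and 335 to 7286 and 7720, whereas Reln fell from 7724 and 8724 to 14 and 22. With miR-15a over the control microRNA 4 of these 9 stellate cell markers rose and 2 fell (median 0.77), 66.7% called beside 29.9% of all genes. The quiescent libraries also held large amounts of endothelial and macrophage transcripts, and the miR-15a libraries held more of these than the other activated groups. Xist, expressed from the inactive X chromosome, was at 8724 in both quiescent libraries, at 169 and 21 in the activated ones and at 3373 to 5027 in the microRNA groups. The Y-linked gene Ddx3y was at 44 and 40 in quiescent cells, 2606 and 2570 in activated cells, 1282 and 1268 with the control microRNA and 1046 and 1006 with miR-15a. The labels give no sex, and a difference between the animals of the groups cannot be told apart from the conditions.

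The 3′ UTR of each member was searched for sequence that matches miR-15a, which does not settle whether a member is a target. The mature sequence, from the RefSeq annotation of GRCm38.p6, is shown with its seed, bases 2 to 8, in capitals, beside miR-16-5p, which has the same seed.
mmu-miR-15a-5p: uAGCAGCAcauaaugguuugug
mmu-miR-16-5p: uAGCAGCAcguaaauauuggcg
In all, 10 mature mouse microRNAs of that table carry this seed. Its complement in DNA letters is TGCTGCT, and it was sought on the transcribed strand, in the longest 3′ UTR that GENCODE M21 (GRCm38) annotates for a gene. Of 12533 genes with an annotated 3′ UTR, 2994 (23.9%) held it. Among the 10 members only Bcl2l2 did.

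Bcl2l2, which encodes BCL-W (chromosome 14, 54883377 to 54888234, plus strand), carries 4 copies in its 3′ UTR of 3177 bases, all in exon 3 of 3. They are shown because no other member has the complete match in its longest 3′ UTR. The capitals mark TGCTGCT, and the first and second copies overlap.
Bcl2l2 site 1, chr14:54886603-54886632: tgggtttttggTGCTGCTgctctatcaggg
Bcl2l2 site 2, chr14:54886606-54886635: gtttttggtgcTGCTGCTctatcaggggcc
Bcl2l2 site 3, chr14:54886859-54886888: ggtgctaacatTGCTGCTctttaatgctga
Bcl2l2 site 4, chr14:54887383-54887412: ggtaagggcttTGCTGCTgaaaaaagttag
Bcl2, which is not one of the 10, has 1 copy, in exon 2 of 2 on the minus strand of chromosome 1, followed by an A.
Bcl2 site, chr1:106540787-106540816: aagaaaccctgTGCTGCTatcctgccaaga
Searching every annotated coding transcript instead added Bcl2l11, which held the sequence in 1 of its 5 transcripts and not in the longest 3′ UTR. Matches to the 6 bases GCTGCT alone also occur in Bcl2l1 (3), Mcl1 (2), Bad (1) and Bbc3 (1). A match is a description of the letters, not evidence of binding.

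**Figure D1:**
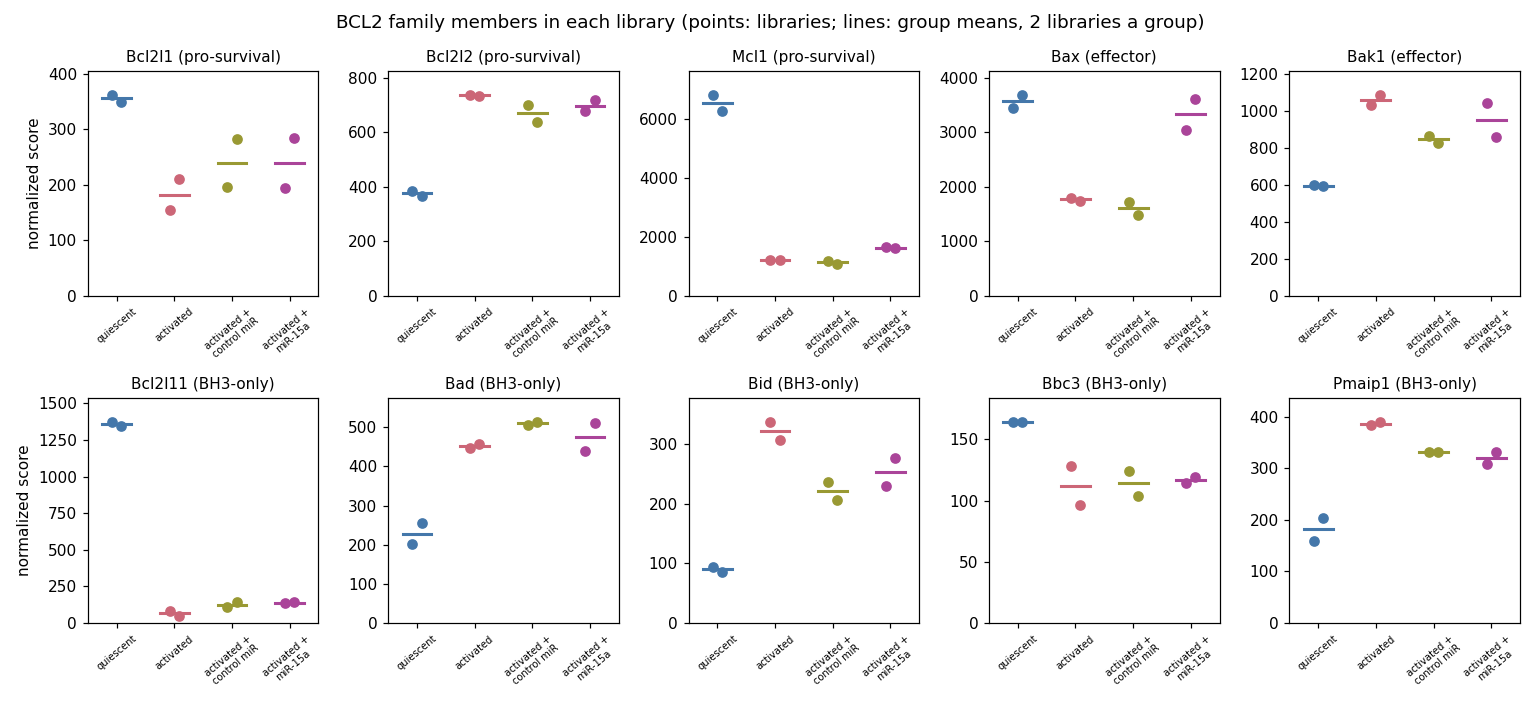
Normalized score (y axis, linear from 0) of each of the 10 members in every library; points are the 2 libraries of a group and lines the group means. Bax stands at 3048 and 3604 with miR-15a, within reach of the quiescent 3448 and 3684, and Bcl2l11 lies far above in the quiescent libraries alone.

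All 10 members differed between activated and quiescent cells, 5 higher and 5 lower, in a comparison in which 79.5% of all genes tested were called (adjusted p under 0.05, limma), 45.4% higher and 34.1% lower. A call on activation was thus the common outcome of a gene in this table. The median log2 fold change of the members was 0.14, against 0.21 for all genes. With miR-15a against the control microRNA 2 members rose, Bax and Mcl1, and none fell, where 29.9% of all genes were called, 14.4% higher and 15.4% lower. Against activated cells with no microRNA named 3 rose, the same genes and Bcl2l11, and none fell, where 38.4% of all genes were called, 16.8% higher and 21.6% lower. The control microRNA against activated cells gave 2 calls, Bcl2l11 higher and Bid lower, against a background of 13.8%, 7.18% higher and 6.61% lower. Set against quiescent cells, miR-15a gave 5 members higher and 3 lower (all genes 71.5%, 37.1% higher and 34.4% lower), and the control microRNA 5 higher and 4 lower (all genes 73.7%, 40.7% higher and 33% lower). These comparisons share groups, so their calls are not independent. Median-ratio scaling moved the median of all genes by -0.27 in the activation comparison, and the split of all calls from 5968 higher and 4483 lower to 4749 and 5418. With that scaling the split became 2311 and 1585, from 1897 and 2029, for miR-15a over the control microRNA. It became 3111 and 1620, from 2204 and 2841, for miR-15a over activated cells, and 1370 and 493, from 944 and 869, for the control microRNA over activated cells. No called member changed direction with it.

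Levels of different genes were set beside each other as scores per kilobase of annotated exon. This takes the normalized scores as proportional to reads, which could not be checked. Bax had the highest score per kilobase of the 10 in every group, with means of 2263 in quiescent cells, 1122 in activated cells, 1016 with the control microRNA and 2110 with miR-15a. Mcl1 came next in quiescent cells at 1919 per kilobase and with miR-15a at 477, and stood behind Bak1 in the activated (355 against 440) and control microRNA groups (331 against 351). Bcl2l11 followed Bak1 in quiescent cells at 169 per kilobase and lowest in the 3 activated groups, at 8.10, 15.5 and 17.1. Bid was lowest in quiescent cells, at 25.4 per kilobase. Exon lengths are the union over all annotated isoforms, longest for Bcl2l11 at 8029 bases, and understate a gene whose cells use shorter ones.

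Mcl1, a short-lived pro-survival protein that many cells need continuously, showed the clearest change among the pro-survival genes (chromosome 3, 95658788 to 95663176, plus strand). Its scores were 6825 and 6290 in quiescent cells, 1215 in both activated libraries, 1176 and 1086 with the control microRNA, and 1648 and 1614 with miR-15a. The quiescent libraries were far above all others, and both miR-15a libraries lay above all 4 other activated libraries. The log2 fold change of Mcl1 on activation was -2.43 ± 0.06 (adjusted p = 3.6e-08, limma), a 5.37-fold decrease. In bulk samples a loss of cells that carry a transcript and a loss of the transcript per cell cannot be told apart. With miR-15a Mcl1 rose by 0.53 ± 0.06 over the control microRNA (adjusted p = 0.0011, limma) and by 0.42 ± 0.06 over activated cells (adjusted p = 0.0024). Both control microRNA libraries lay below the activated ones, and that difference was not called (-0.10 ± 0.06, 95% interval -0.26 to 0.05, adjusted p = 0.31). Summed endothelial markers also went from 849 and 1223 with the control microRNA to 8875 and 8824 with miR-15a, and the part of transcripts of other cells in the results for Mcl1, Bax and Bcl2l11 was not tested.

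Bcl2l1, whose main product is BCL-XL, went the same way as Mcl1 on activation, with the largest SE of the 10. It stood at 362 and 350 in quiescent cells, 154 and 210 in activated cells, 196 and 283 with the control microRNA and 194 and 284 with miR-15a. The quiescent libraries were the highest, and the 3 activated groups overlapped one another. The decrease on activation was -0.97 ± 0.24 (adjusted p = 0.0066, limma). Between miR-15a and the control microRNA the difference was -0.00 ± 0.24, with an interval of -0.56 to 0.55, so a change of up to about that size in either direction could not be seen. Both microRNA groups were at -0.59 on the log2 scale against quiescent cells without passing (adjusted p = 0.057 each, limma), and passed under 6 of 16 alternatives each. Replicate a was below replicate b in each of the 3 activated groups. With the replicate letter as a block the SE was 0.16 and both differences were called (adjusted p = 0.012 each, limma). Among single libraries, leaving out miR-15a replicate b (adjusted p = 0.026) or either control library (0.042 each) gave the call with miR-15a, and leaving out control replicate b (0.025) or either miR-15a library (0.045 each) the call with the control microRNA. The values themselves shrank to -0.32 (adjusted p = 0.32) without miR-15a replicate a and to -0.33 (0.30) without control replicate a.

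Bcl2l2 was the pro-survival gene that rose on activation, from 386 and 368 to 738 and 734 (log2 fold change 0.96 ± 0.07, adjusted p = 9.2e-06, limma). With the control microRNA its scores were 702 and 640, and with miR-15a 678 and 718. All 6 activated libraries lay well above the quiescent ones, and the microRNA groups overlapped. Although its 3′ UTR holds the 4 seed matches shown above, its level with miR-15a differed from the control microRNA by 0.06 ± 0.07 (95% interval -0.11 to 0.23, adjusted p = 0.59, limma) and from activated cells by -0.08 ± 0.07 (interval -0.25 to 0.09). These intervals rest on 2 libraries a group, which may be technical repeats, and do not bound a change in stellate cells alone. Both microRNA groups lay below the activated libraries, and neither difference was called. GENCODE also lists Gm20521, a protein-coding gene model on the same strand that shares exons with Bcl2l2, so reads of these exons may have been split or dropped in counting.

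**Figure D2:**
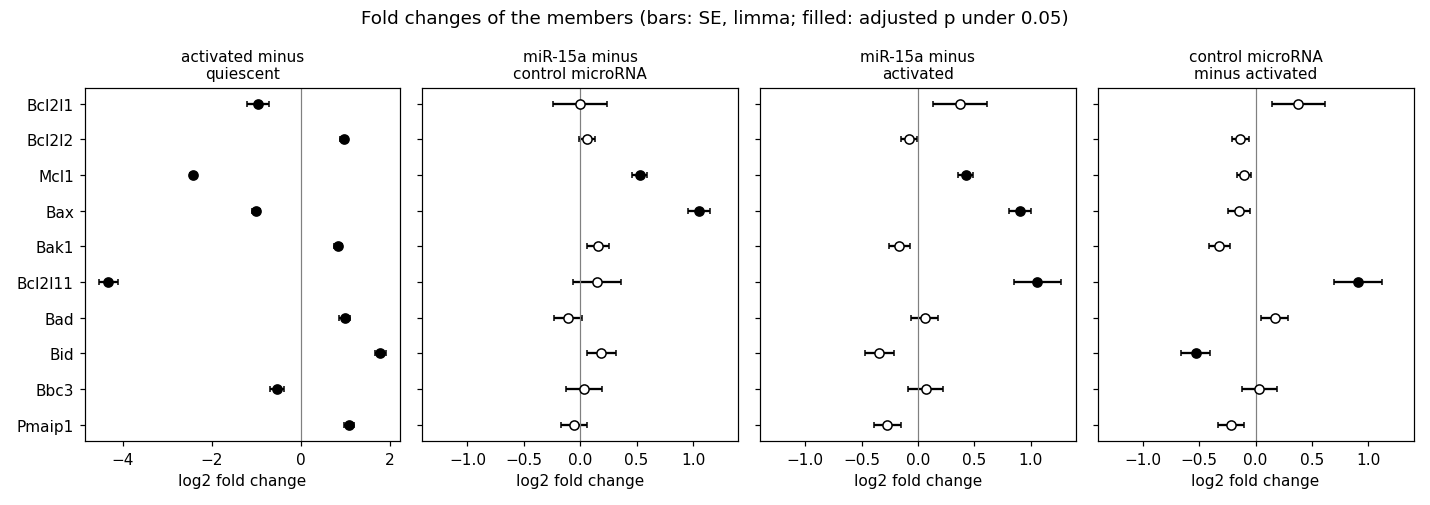
Log2 fold change (x axis, on the log2(score + 5) scale) of each member in 4 comparisons, with the SE from limma as bars and filled points for an adjusted p under 0.05; the first panel has a wider axis. All 10 members are filled on activation, and Bax (1.05) and Mcl1 (0.53) are the filled points for miR-15a against the control microRNA.

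Bax, the effector that moves from the cytosol to the mitochondrial membrane when activated, had the largest change of the 10 with miR-15a over the control microRNA (chromosome 7, 45461697 to 45466898, minus strand). Its scores were 3448 and 3684 in quiescent cells, 1794 and 1744 in activated cells, 1716 and 1486 with the control microRNA, and 3048 and 3604 with miR-15a. The miR-15a libraries overlapped the quiescent ones and did not overlap the other activated groups. Bax was lower in activated than in quiescent cells, with a log2 fold change of -1.01 ± 0.10 (adjusted p = 4.1e-05, limma). With miR-15a it rose by 1.05 ± 0.10 over the control microRNA, 2.07-fold (adjusted p = 3.1e-04), and by 0.90 ± 0.10 over activated cells (adjusted p = 4.8e-04). The difference between miR-15a and quiescent cells was -0.10 ± 0.10 (adjusted p = 0.38). Macrophage markers, from summed scores of 2405 and 2169 with the control microRNA to 12576 and 13798, and interferon response genes, from 1885 and 1792 to 12589 and 13944, rose in the same comparison. Across all 16 alternatives the Bax difference from the control microRNA lay between 0.93 and 1.17. Bax shares exons with Gm45808, a protein-coding gene model on the same strand.

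Bak1, the effector that resides in the mitochondrial membrane, moved against Bax on activation. It rose from 596 and 592 to 1030 and 1086 (log2 fold change 0.83 ± 0.09, adjusted p = 9.8e-05, limma). Scores with the control microRNA were 866 and 826, and those with miR-15a 1040 and 856, so that these groups overlapped. The 3 differences among the activated groups did not pass, and each passed with 1 miR-15a library left out. With miR-15a against the control microRNA the value was 0.16 ± 0.09 (adjusted p = 0.25), and it was called without miR-15a replicate b (0.30, adjusted p = 0.043, limma). Against activated cells it was -0.16 ± 0.09 (adjusted p = 0.21), and it was called without miR-15a replicate a (-0.30, adjusted p = 0.031). The control microRNA against activated cells gave -0.32 ± 0.09 (adjusted p = 0.061) and was called without either miR-15a library (adjusted p = 0.030 and 0.029). Bak1 overlaps Ggnbp1 on the opposite strand.

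Bcl2l11, which encodes the BH3-only protein BIM, a strong binder of all pro-survival members, had the largest change of the 10 on activation (chromosome 2, 128126038 to 128162547, plus strand). It stood at 1372 and 1346 in quiescent cells and at 80 and 50 in activated cells. The control microRNA libraries held 107 and 142 and the miR-15a libraries 134 and 141. The quiescent libraries stood apart, the activated libraries were the lowest, and the microRNA groups overlapped. The decrease on activation was -4.32 ± 0.21 on the log2 scale, 19.9-fold (adjusted p = 7.6e-07, limma), and the endothelial sums went from 226043 and 155894 to 839 and 734 between the same groups. Relative to activated cells it rose with miR-15a by 1.06 ± 0.21 (adjusted p = 0.0075) and with the control microRNA by 0.91 ± 0.21 (adjusted p = 0.034), and between the microRNA groups the difference was 0.15 ± 0.21 (95% interval -0.34 to 0.64, adjusted p = 0.63). The call with the control microRNA did not hold when any 1 of 6 libraries was left out. Its adjusted p was then 0.062 without either quiescent library and 0.060 without either miR-15a library, with the value still at 0.91. The value itself moved to 0.59 without activated replicate b (adjusted p = 0.13) and to 0.71 without control replicate b (0.16).

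Bid, which is cleaved by caspase 8 and carries death receptor signals to mitochondria, rose most of the BH3-only genes on activation. It went from 94 and 86 to 337 and 307 (log2 fold change 1.78 ± 0.13, adjusted p = 6.6e-06, limma). It was at 237 and 206 with the control microRNA and at 230 and 277 with miR-15a, so both microRNA groups lay between quiescent and activated cells and overlapped each other. Against activated cells Bid was lower with the control microRNA (-0.53 ± 0.13, adjusted p = 0.037), and with miR-15a the difference did not pass (-0.34 ± 0.13, adjusted p = 0.070). The call with the control microRNA was lost without either quiescent library (adjusted p = 0.057 and 0.056), either activated library (0.16 and 0.11) or control replicate b (0.17), with median-ratio scaling (0.053) and with the replicate letter as a block (0.053). Bid overlaps Bcl2l13, another family gene, on the opposite strand. Unless strand was used in counting, which the sources used here do not state, reads of the shared stretch cannot be assigned to either. Bcl2l13 went the other way, from 372 in both quiescent libraries to 200 and 184 in activated ones.

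Pmaip1, which encodes NOXA, a BH3-only protein that binds MCL1, and Bad, which binds BCL-XL and BCL2 and is held inactive by phosphorylation, both rose on activation. Pmaip1 went from 160 and 204 to 384 and 390 (log2 fold change 1.08 ± 0.12, adjusted p = 7.6e-05, limma). It was at 332 in both control microRNA libraries and at 308 and 332 with miR-15a. Both groups were thus a little below activated cells. The difference of miR-15a from activated cells was -0.27 ± 0.12 (adjusted p = 0.11), and it was called without either quiescent library (adjusted p = 0.038 and 0.039). Bad went from 202 and 255 to 448 and 458 (0.98 ± 0.12, adjusted p = 1.6e-04). It was at 506 and 513 with the control microRNA and at 438 and 510 with miR-15a, and no difference among the activated groups passed. Bad overlaps Gpr137 on the opposite strand.

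Bbc3, which encodes the p53-induced BH3-only protein PUMA, had the smallest change of the 10 on activation. It was at 164 in both quiescent libraries and at 128 and 96 in activated ones. With the control microRNA it was at 124 and 104, and with miR-15a at 114 and 119. All 6 activated libraries were below the quiescent ones and overlapped among themselves. The log2 fold change on activation was -0.54 ± 0.16 (adjusted p = 0.014, limma). The call was lost without either quiescent library (adjusted p = 0.053 each) and without activated replicate b (-0.35, adjusted p = 0.082). With miR-15a against the control microRNA the difference was 0.03 ± 0.16 (95% interval -0.33 to 0.40).

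Ordered by level, 11 of the 30 neighbouring group means of the 10 members differed (adjusted p under 0.05, limma). The same count was not made over all genes. Of all genes, 71.5 to 79.5% were called in the comparisons with quiescent cells and 13.8 to 38.4% in those among activated groups. For Bcl2l2, Bak1, Bad, Bid and Pmaip1 quiescent cells were lowest and differed from the next group, and no neighbours among the 3 activated groups did. For Bbc3 quiescent cells were highest and the activated groups did not differ among neighbours. Mcl1 ran from quiescent cells through miR-15a to activated cells, each step called, and activated cells and the control microRNA did not differ. Bax ran from quiescent cells and miR-15a, which did not differ, down to activated cells and the control microRNA, which did not differ either. For Bcl2l11 quiescent cells were above miR-15a and the control microRNA was above activated cells. No neighbouring groups of Bcl2l1 differed.

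**Figure D3:**
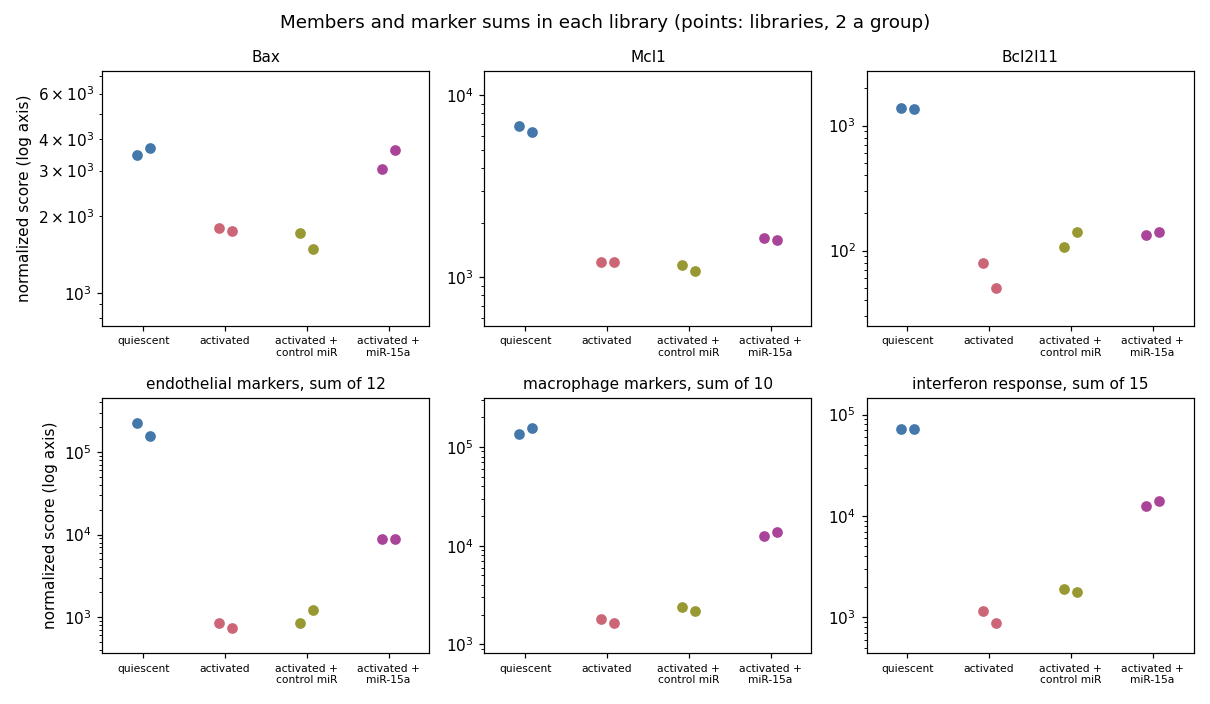
Normalized score on a log axis of Bax, Mcl1 and Bcl2l11 (top) and summed scores of endothelial, macrophage and interferon response lists (bottom) in each of the 8 libraries. The marker sums are highest in quiescent libraries and next highest with miR-15a, where the endothelial sums are 8875 and 8824 and the control microRNA sums 849 and 1223.

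Transcripts of other liver cells also differed between the groups. The summed scores of 12 endothelial markers were 226043 and 155894 in quiescent cells, 839 and 734 in activated cells, 849 and 1223 with the control microRNA and 8875 and 8824 with miR-15a. Those of 10 macrophage markers, of 12 listed, were 134851 and 156486, 1820 and 1635, 2405 and 2169, and 12576 and 13798 in the same order. No marker of these lists was at 0 in both libraries of any group. All 12 endothelial and all 10 macrophage markers fell on activation, and 11 and 10 rose with miR-15a over the control microRNA. Hepatocyte markers, 8 of 10 measured, summed to 14535 and 12539 in quiescent cells and to 164 to 1756 elsewhere. The 15 measured genes of the interferon response all fell on activation and all rose with miR-15a over the control microRNA, from sums of 1885 and 1792 to 12589 and 13944, against 72548 and 72926 in quiescent cells. Of the 10 members 5, Mcl1, Bax, Bcl2l11, Bcl2l1 and Bbc3, had their highest mean in quiescent cells. Bcl2l2, Bak1, Bad, Bid and Pmaip1 had their lowest mean there. This count was not made over all genes, of which 34.1% were called lower and 45.4% higher on activation. Bax was at 3048 and 3604 with miR-15a and at 3448 and 3684 in quiescent cells. That difference was not called (-0.10 ± 0.10, interval -0.34 to 0.13). The endothelial, macrophage and interferon sums with miR-15a were all below their quiescent values. Whether other cells or the interferon response had a part in the Bax level was not tested. Of the other lists 3 lymphocyte genes of 9, 1 neutrophil gene of 5 and 1 cholangiocyte gene of 4 had values, of which Ptprc, the pan-leukocyte antigen, was at 1526 and 1572 in quiescent cells and at 382 and 478 with miR-15a.

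Of 15 other genes of the family 11 were measured. There were 2 higher and 7 lower on activation (median log2 fold change -0.94), 81.8% called against 79.5% of all genes. Over the control microRNA miR-15a gave 7 higher and 1 lower, 72.7% called against 29.9% of all genes, with a median of 0.58 against -0.07 for all genes. Bcl2a1b, a copy of the pro-survival A1 gene used by leukocytes and endothelium, was at 518 and 524 in quiescent cells, 24 and 22 in activated cells, 22 in both control libraries and 124 and 143 with miR-15a. Its log2 fold change was -4.23 on activation and 2.36 ± 0.13 with miR-15a (adjusted p = 2.1e-05, limma). Bcl2a1d (-3.57 and 1.38) and Bcl2a1a (-3.79 and 2.07) went the same way, and reads of these near-identical copies may have been split between them. Each copy counts as a gene in the shares called above, though their calls may not be independent. Bik, a BH3-only gene, was at 194 and 244 in quiescent cells and at 0 and 1 in activated ones, and was at 2 and 4 with the control microRNA and 18 and 20 with miR-15a. Its call with miR-15a (1.60 ± 0.21, adjusted p = 0.0017, limma) has a size that depends on the pseudocount. Bok, another effector-like gene, rose on activation by 1.03 and again with miR-15a by 0.62, from 3514 and 3112 to 5029 and 5124. Bnip3, a mitophagy receptor with a BH3-like motif, rose in both comparisons as well (0.79 and 0.56). Against activated cells Bnip3 was lower with the control microRNA (-0.34 ± 0.08, adjusted p = 0.035, limma). Its difference between miR-15a and activated cells was not called (0.22 ± 0.08, adjusted p = 0.068, limma).

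Bcl2 itself was low in every library. It stood at 86 and 90 in quiescent cells, 92 and 108 in activated cells, 118 and 143 with the control microRNA and 87 and 98 with miR-15a. The control microRNA libraries were the highest and did not overlap those with miR-15a, while those with miR-15a overlapped both the quiescent and the activated ones. It was lower with miR-15a than with the control microRNA by -0.47 ± 0.15 (adjusted p = 0.048, limma), and against activated cells the difference was -0.11 (adjusted p = 0.60). Leaving out each library in turn gave an adjusted p from 0.042 (without control replicate a) to 0.22 (without control replicate b), and it was under the threshold only in the first case. Of all 16 alternatives 12 lost the call.

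**Figure D4:**
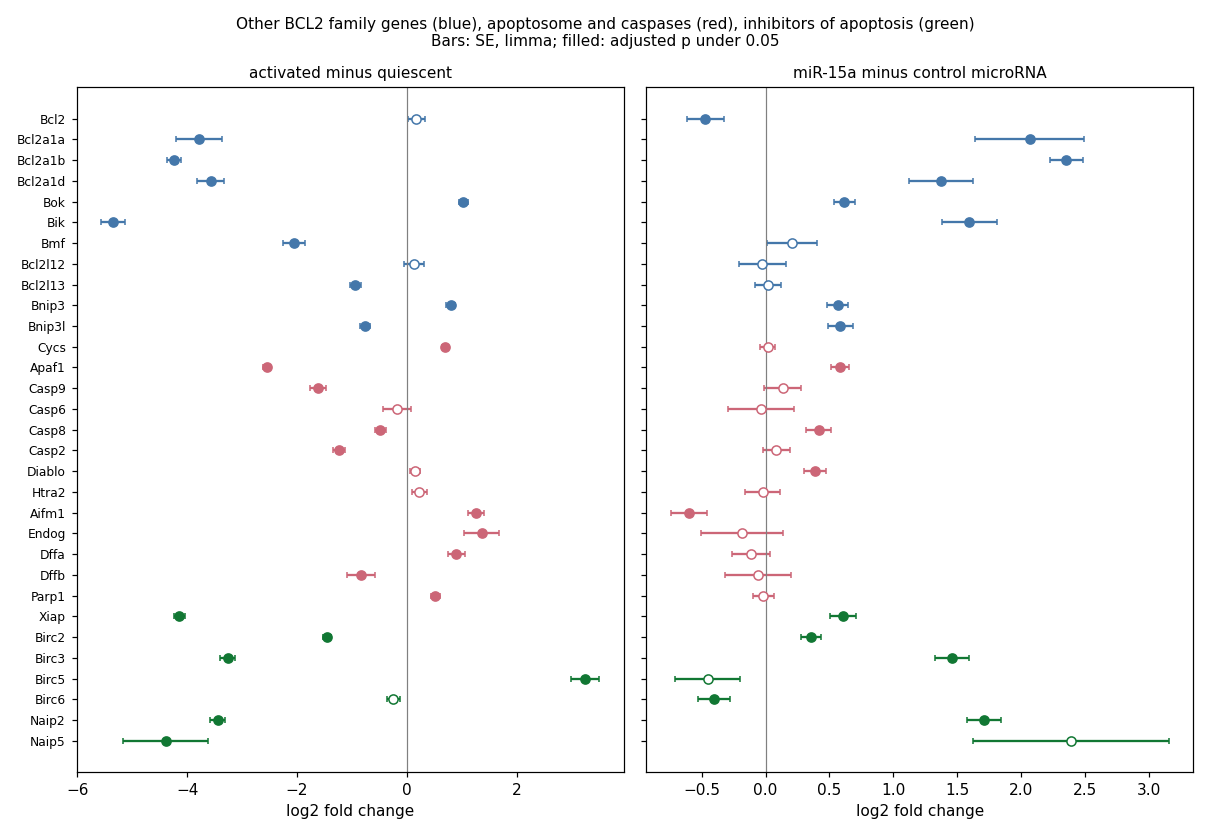
Log2 fold change with SE (limma) of genes of the other BCL2 family, apoptosome and caspase, and inhibitor of apoptosis lists on activation (left) and with miR-15a over the control microRNA (right); filled points passed an adjusted p of 0.05, and the panels have different axes. Apaf1, Xiap, Birc3 and Naip2 lie below 0 on the left and above 0 on the right.

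Downstream of the members, the genes of caspase activation and its inhibitors were called in both directions. Of 15 apoptosome and caspase genes 5 rose and 7 fell on activation, a share of 80% beside 79.5% of all genes. Apaf1, the scaffold of the apoptosome, went from 2670 and 2732 to 456 in both libraries, a log2 fold change of -2.55. It was -1.23 for Casp2, a caspase linked to the stress of abnormal cell division. Aifm1, a mitochondrial flavoprotein with a role in caspase-independent death, rose by 1.25 ± 0.14. With miR-15a over the control microRNA 5 of the 15 rose and 1 fell, 40% beside 29.9%. Apaf1 rose by 0.58 ± 0.07 (adjusted p = 8.8e-04, limma), from 662 and 592 to 945 and 936, and Diablo, whose product relieves caspase inhibition, by 0.39. Aifm1 fell (-0.60 ± 0.14, adjusted p = 0.018).

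Among 7 measured inhibitor of apoptosis genes, of 9 listed, 1 was higher and 5 lower on activation (median log2 fold change -3.26), 85.7% called beside 79.5% of all genes. Xiap, a direct caspase inhibitor, went from 11355 and 9824 to 612 and 575 (-4.14 ± 0.10, adjusted p = 2.5e-08, limma). Naip2, a sensor of bacterial proteins in macrophages, had a log2 fold change of -3.45, Birc3 of -3.26 and Birc2 of -1.45, the latter 2 being ubiquitin ligases of TNF signalling. Over the control microRNA 4 rose and 1 fell with miR-15a, 71.4% called beside 29.9%, with increases of 1.71 for Naip2, 1.46 for Birc3, 0.60 for Xiap and 0.36 for Birc2. Of 7 measured death receptor genes 2 rose and 3 fell on activation, 71.4% called beside 79.5% of all genes. Cflar, the caspase 8 inhibitor FLIP, was at -2.56, Tnfrsf1a, a receptor for TNF, at -2.10 and Ripk1, a kinase of TNF signalling, at -1.25, while Tnfrsf10b, the mouse TRAIL receptor, rose by 1.08. With miR-15a over the control microRNA only Ripk1 of these 7 was called (0.33 ± 0.10, adjusted p = 0.042), a share of 14.3% beside 29.9%. Fadd, the adaptor of death receptors, was at -0.50 ± 0.22 (adjusted p = 0.13).

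Of 20 measured regulators and partners of the BCL2 proteins 9 rose and 9 fell on activation, 90% called beside 79.5% of all genes. With miR-15a over the control microRNA 3 rose and 8 fell, 55% called beside 29.9% of all genes. Against activated cells miR-15a gave 3 higher and 3 lower, 30% called beside 38.4% of all genes. The control microRNA against activated cells gave 4 higher and 1 lower, 25% beside 13.8%. Vdac1 and Vdac2, channels of the outer membrane of which VDAC2 binds BAK, rose by 2.07 and 1.62 on activation. Sh3glb1, a BAX-binding protein, rose by 1.93 and Tmbim6, also called BAX inhibitor 1, was lower (-1.61). With miR-15a Usp9x, a deubiquitinase that stabilises MCL1, was lower by -0.84 ± 0.09 (adjusted p = 5.8e-04, limma) and Huwe1, a ubiquitin ligase for MCL1, by -0.78 ± 0.14 (adjusted p = 0.0063). Usp9x was at 14432 and 12566 in both the activated and the miR-15a groups and at 24105 in both control libraries, with the control libraries standing apart. Huwe1 was likewise at 2106 and 2168 in activated cells, 2063 and 2275 with miR-15a and 3168 and 4368 with the control microRNA. Mdm2, the ubiquitin ligase for p53, rose with miR-15a by 0.43, and Sh3glb1 was lower (-0.37).

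The genes with the most similar profiles over the 8 libraries were sought for the 6 members whose group means spanned more than 1 on the log2 scale, among 12282 genes, by the root mean square difference of centred log2 scores. For Mcl1 they were Litaf (0.05), Wsb1 (0.08) and Lipa (0.08), and for Bax they were Pdcd2l, Tfrc and Arhgap18 (0.10 to 0.12). Litaf, for example, was at 9198 and 9200 in quiescent cells, 1772 and 1694 in activated cells and 2251 and 2250 with miR-15a. For Bcl2l11 the nearest were Gja1 (0.21), Xiap (0.24) and Jak3 (0.25), which is a looser match. Bad was nearest to Mpv17l, Ppcdc and Sae1 (0.06 to 0.09), Bid to Smim15, Mrps35 and Crcp (0.07 to 0.09) and Pmaip1 to Rbmx2, Zfp846 and Gtf2f1 (0.05 to 0.07).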

How the data were processed

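Total RNA of 8 libraries was made into TruSeq libraries and sequenced as single-end reads, per the labels' protocols. The submitters' processing notes name STAR, Subread, featureCounts and the build mm10, without versions or settings. The deposited values are whole-number scores rather than raw counts, since the same 910 distinct values recur in all 8 libraries, 10 genes in each sit at the maximum of 125636, and library totals lie within 0.409% of each other. Quantile normalization and rounding would leave such values, but no header or label records the step. High scores lie on shared steps, so libraries can be tied and an SE can be too small.

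Scores were analysed as log2(score + 5) with limma (version 3.58.1, R 4.3.3). Tested were the 13150 of 14162 genes that reached a score of 10 in 2 or more libraries, with 4 group means, a variance prior that follows the mean and Benjamini-Hochberg adjustment over all of them. A call is an adjusted p under 0.05. Errors are SE or SD with n = 2 per group, and 95% intervals come from the same fit. This scale understates fold changes at low scores. Simulated data, with known changes in a small part of the genes of the miR-15a group and independent noise, were used to test the fit. They lack the shared steps and the large shares of called genes seen here, so they do not settle the error rate of these calls. The main fit did not pair libraries by the replicate letters a and b. Deviations of equally lettered libraries correlated between groups at -0.07 to 0.09 across all genes tested. That value does not settle pairing for single genes such as Bcl2l1.

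The members and lists were chosen with earlier results of these data known. All members were named, and from each pathway list the up to 4 genes with the smallest p on activation and with miR-15a over the control microRNA, with Bcl2 always; 2 genes of these lists are counted but not reported by name here. Bcl2a1a, Bcl2l13, Ptprc, Xist, Ddx3y, Pdgfrb, Reln, Trp53 and the p53 response genes were singled out after their values were seen. Alternatives covered the pseudocount, the filter, scaling, the samples in the fit, the variance prior, a fold limit, the replicate letter as a block, leaving out single libraries and the transcripts searched for seed matches. Positions are GRCm38, the assembly behind mm10, counted from 1.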

Additional observations from a re-analysis of the deposited data

How the results depend on the processing

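The 10 calls on activation, the 2 with miR-15a over the control microRNA and the 3 over activated cells stayed within 1.5 times of these counts under every alternative but 1. Requiring a log2 fold change over 1 as well left 5, 1 and 1, because smaller changes no longer count, and left 0 for the control microRNA against activated cells and 3 of the 11 neighbouring groups. The 2 calls with the control microRNA against activated cells were the least stable: 1 remained with median-ratio scaling, 1 with the replicate letter as a block and 0 with only the 2 groups in the fit, and leaving out each library in turn gave 0 to 2. The cause was not tested. The same leaving-out gave 9 to 10, 2 to 3 and 3 to 4 for the first 3 counts and 9 to 11 for the neighbouring groups. With the replicate block the other 3 counts were the same. Where a library was left out, the remaining one of its group is assumed to vary like the other groups. Median-ratio scaling moved the median of all genes by 0.06 for miR-15a over the control microRNA, 0.14 for miR-15a over activated cells and 0.08 for the control microRNA over activated cells. No called value of a member or named gene changed direction under any alternative run. The seed match was in 1 member by the longest 3′ UTR and in 2 by any coding transcript. Without depths, no counting error can be given.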

Other observations

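The following ratios between members within a library were chosen after the values were seen and were not tested. They too take the normalized scores as proportional to reads. Per kilobase of exon, the ratio of Bax to Mcl1 was 1.10 and 1.27 in quiescent cells, 3.20 and 3.11 in activated cells, 3.16 and 2.97 with the control microRNA, and 4.01 and 4.84 with miR-15a. The miR-15a libraries thus had the highest ratio and the quiescent ones the lowest, although Bax alone was at a similar level in both groups. The ratio of the effectors Bax to Bak1 was 8.84 and 9.50 in quiescent cells, 2.66 and 2.45 in activated cells, 3.03 and 2.75 with the control microRNA, and 4.48 and 6.43 with miR-15a. That of Bcl2l11 to Mcl1 was 0.086 and 0.091 in quiescent cells and 0.018 to 0.056 in the 6 activated libraries. Bax to Bcl2l1 overlapped between quiescent and activated cells (27.7 and 30.6, and 33.9 and 24.2) and was highest with miR-15a (45.7 and 36.9).

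Several members are textbook targets of p53. Of 10 other p53 response genes 4 rose and 5 fell on activation, 90% called beside 79.5% of all genes. With miR-15a over the control microRNA 5 rose and 1 fell, 60% called beside 29.9% of all genes, with a median log2 fold change of 0.37 beside -0.07. Cdkn1a (0.14), Sesn2 (0.10), Gtse1 (0.07) and Ccng1 (0.46) did not pass. Trp53inp1, which had the largest change of the list there (1.21), was at 3203 and 3317 in quiescent cells, 896 and 746 in activated cells, 852 in both control microRNA libraries and 1977 and 1976 with miR-15a. Bax and Mdm2 rose with miR-15a in the same comparison, whereas Bbc3 and Pmaip1 did not pass. Trp53 itself was at 435 and 374 in quiescent cells, 88 and 92 in activated cells, 155 and 158 with the control microRNA and 145 and 120 with miR-15a. No test links these values.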
